A study of Homo sapiens with 2 samples.

Results

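The sites described here are the places near protein-coding genes where a peak was called in TC32 cells given siEWS-FLI and none was called in cells given siNEG. TC32 is an established cell line of Ewing sarcoma. Both groups were profiled by CUT&Tag for EWS-FLI, with 1 library each. The labels differ only in the small interfering RNA, and they spell out neither siNEG nor the antibody. Both libraries were amplified by 14 and then 20 cycles of PCR. The sites were chosen by the peak calls of both libraries and by position. An interval was kept when it shared no base with any siNEG interval and its summit, the base of highest read coverage, lay no more than 1 kb from either end of a gene that RefSeq (GRCh38) lists as protein-coding. On chromosomes 1 to 22 and X this left 307 of 6362 siEWS-FLI intervals. The siNEG library had 16274 intervals. The calls themselves chose these sites, so their absence from the siNEG list, their strength and their width are given as description. With 1 library in each group, no difference has a replicate check and no test was made.

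EWS-FLI joins the transcription-activating part of EWSR1 to the DNA-binding ETS domain of FLI1. ETS domains recognise a GGAA core, and the fusion also binds runs of GGAA repeats, many of them far from genes. Promoters, the stretches around gene starts, are often rich in CpG dinucleotides and hold sites for widely expressed ETS factors, and their open chromatin is also readily cut by the transposase used in CUT&Tag.

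The promoters that carry the strongest of these sites are shown first. They are RefSeq windows on GRCh38.p14, from 250 bases before to 50 bases after the start of the gene, read 5′ to 3′ along the gene. CDK12 (chr17:39461236-39461535, plus strand) and NARS2 (chr11:78574815-78575114, minus strand) hold the strongest summits inside such a window. Capitals in this pair mark the GC box GGGCGG on either strand, of which the NARS2 window holds 2 and the CDK12 window 0.
CDK12: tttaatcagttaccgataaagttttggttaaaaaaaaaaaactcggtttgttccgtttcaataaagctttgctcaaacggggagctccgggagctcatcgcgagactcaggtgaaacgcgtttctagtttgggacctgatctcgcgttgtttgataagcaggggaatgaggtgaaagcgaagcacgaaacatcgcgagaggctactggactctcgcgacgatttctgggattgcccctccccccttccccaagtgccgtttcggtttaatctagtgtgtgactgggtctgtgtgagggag
NARS2: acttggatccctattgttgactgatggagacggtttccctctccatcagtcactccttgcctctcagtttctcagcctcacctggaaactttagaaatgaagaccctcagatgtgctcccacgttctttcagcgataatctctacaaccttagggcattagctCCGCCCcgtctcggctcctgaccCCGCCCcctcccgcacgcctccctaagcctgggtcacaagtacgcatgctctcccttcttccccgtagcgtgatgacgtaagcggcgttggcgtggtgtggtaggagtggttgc
Of 53 windows that hold the summit of a site, 9 also hold the ETS motif CCGGAAG. The windows at the 4 strongest of those sites follow, to show where the motif lies, with the motif in capitals on either strand. They belong to ALG14 (chr1:95072902-95073201, minus), ZNF431 (chr19:21141790-21142089, plus), ZNF432 (chr19:52048789-52049088, minus) and COX4I1 (chr16:85799445-85799744, plus).
ALG14: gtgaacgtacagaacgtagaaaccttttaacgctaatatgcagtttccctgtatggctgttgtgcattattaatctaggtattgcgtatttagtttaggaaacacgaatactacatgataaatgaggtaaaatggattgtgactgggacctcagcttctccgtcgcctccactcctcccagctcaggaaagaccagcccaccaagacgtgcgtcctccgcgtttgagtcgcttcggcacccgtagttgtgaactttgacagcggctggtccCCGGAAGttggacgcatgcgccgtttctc
ZNF431: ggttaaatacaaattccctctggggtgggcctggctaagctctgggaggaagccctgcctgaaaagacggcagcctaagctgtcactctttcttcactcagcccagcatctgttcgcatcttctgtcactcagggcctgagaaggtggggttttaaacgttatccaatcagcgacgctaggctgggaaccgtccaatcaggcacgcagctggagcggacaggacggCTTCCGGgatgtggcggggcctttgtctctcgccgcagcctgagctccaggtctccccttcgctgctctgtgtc
ZNF432: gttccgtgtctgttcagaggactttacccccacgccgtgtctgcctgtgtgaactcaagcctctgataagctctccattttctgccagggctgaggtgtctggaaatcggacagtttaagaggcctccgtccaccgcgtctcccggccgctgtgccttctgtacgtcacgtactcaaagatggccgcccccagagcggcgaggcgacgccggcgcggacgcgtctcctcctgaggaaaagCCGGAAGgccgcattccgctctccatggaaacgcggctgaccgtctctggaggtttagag
COX4I1: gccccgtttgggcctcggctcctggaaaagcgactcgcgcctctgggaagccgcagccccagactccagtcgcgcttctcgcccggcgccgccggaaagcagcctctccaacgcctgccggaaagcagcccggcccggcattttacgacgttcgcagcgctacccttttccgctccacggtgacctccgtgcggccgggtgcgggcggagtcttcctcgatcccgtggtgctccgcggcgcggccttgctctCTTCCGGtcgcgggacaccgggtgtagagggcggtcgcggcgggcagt
The windows differ in composition: that of CDK12 had a GC content of 49% and that of COX4I1 of 71%. Neither the CDK12 nor the NARS2 window held the ETS motif. The ETS motif began 24 bases before the start of ZNF431 and 10 bases before that of ZNF432. It began 2 bases after the start of COX4I1 and 21 bases after that of ALG14.

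The sites were weak and narrow. Strength is given as the summit pileup, the number of reads, each extended to 200 bases, that cover the summit; it was solved from the deposited fold enrichment and p-value. Pileups ran from 4 to 12 reads with a median of 5, and 138 of the 307 (44.95%, exact binomial 95% interval 39.3 to 50.7) stood at 4 reads, the smallest pileup called in either library. For a single site of 4 reads the Poisson interval ran from 1.09 to 10.2. These intervals cover counting error only. The authors' fold enrichment (column 7 of the peak list) ran from 3.73 to 9.68 with a median of 4.62, and the −log10 q-value (column 9) from 1.39 to 11.5 with a median of 2.46. Widths ran from 200 to 431 bases, and 274 sites (89.3%, 85.2 to 92.5) were exactly 200 bases wide, the narrowest interval in either list. Gene-end intervals shared by both libraries had a median of 8 reads, and 32.2% (29.95 to 34.4) of them were 200 bases wide. siEWS-FLI-only intervals away from gene ends had a median of 4 reads, and 97.4% (96.9 to 97.9) were 200 bases wide.

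The number of reads that could have gone uncalled with siNEG limits what these sites show. At the siNEG library's own background of 0.348 reads per base, a stretch of at least 200 bases with up to 3 reads would have stayed uncalled. The background with siEWS-FLI was 0.239. The siEWS-FLI pileups, 4 reads or more by the call itself, are set against this limit as a description. Even without counting error on the siNEG side, the Poisson interval reached 3 reads or fewer at all but 22 of the 307 sites, those with 8 reads or more. Reads were not scaled between the libraries, whose backgrounds differ, so the number 22 holds for raw reads only. The 22 do not thereby show a difference, because the siNEG count there was not measured and some have a siNEG interval beside them. A higher but narrower pileup could also go uncalled, and a higher local background would raise the limit. An uncalled site is therefore not shown to be empty.

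Gene ends held a larger share of the siEWS-FLI-only intervals than of the chromosomes' length. Of 6362 siEWS-FLI intervals, 3748 (58.9%) had no siNEG overlap, and 307 of these (8.19%, 7.33 to 9.12) lay at gene ends. Windows of 1 kb around protein-coding gene ends cover 2.396% of the chromosome span. Looked at from the other side, 2017 siEWS-FLI intervals lay at gene ends and 307 of them (15.2%) were not shared. The shares of 58.9% and 15.2% come from the calls the rule used and are given only as its background.

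Stronger siEWS-FLI-only intervals lay at gene ends more often. The share at gene ends was 5.49% (4.63 to 6.46) of the 2513 intervals with 4 reads and 9.44% (7.48 to 11.7) of the 773 with 5. It was 19.2% (14.6 to 24.4) of the 266 with 6 reads and 22.96% (17.3 to 29.5) of the 196 with 7 or more. Among intervals wider than 200 bases, 33 of 121 (27.3%, 19.6 to 36.1) lay at gene ends, against 274 of 3627 (7.55%, 6.72 to 8.46) of those 200 bases wide. The share at gene ends thus rose with pileup and with width.

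**Figure D1:**
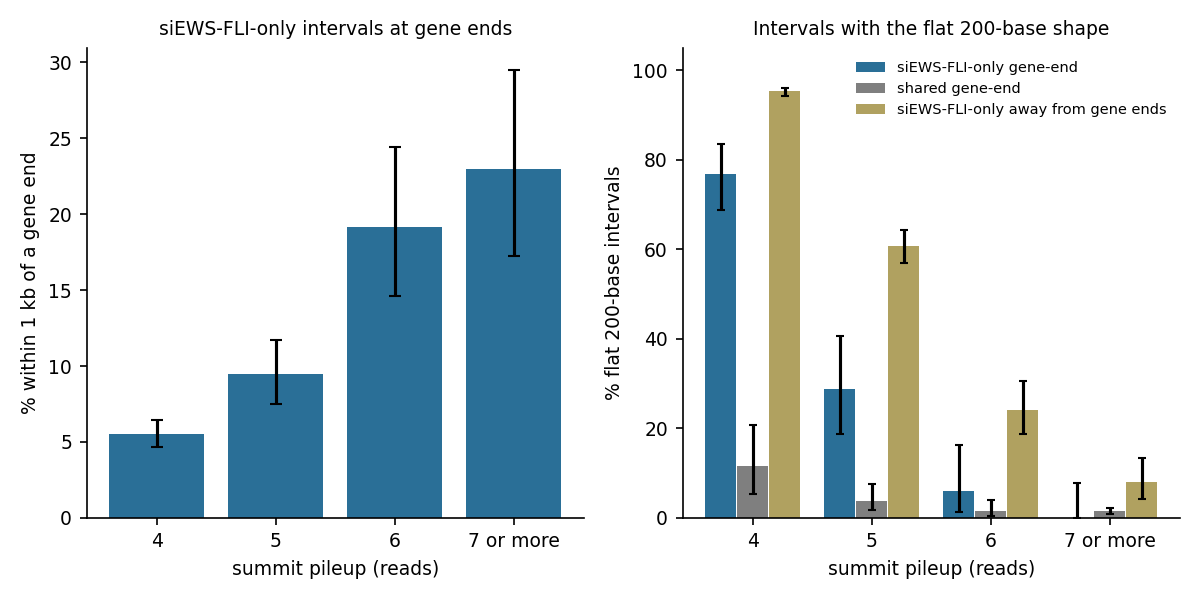
Left, percentage of siEWS-FLI-only intervals whose summit lies at a gene end, by summit pileup in reads. Right, percentage of intervals with the flat 200-base shape, by summit pileup, for 3 classes; bars show exact 95% binomial intervals. The share at gene ends goes from 5.49% at 4 reads to 22.96% at 7 or more, and the gene-end sites lie between the other two classes in their share of flat intervals at 4, 5 and 6 reads.

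The shape of the intervals separated the sites further. When reads are extended to 200 bases, reads that all start at 1 position give an interval of exactly 200 bases with a level top, and its summit is reported on the middle base, base 100. This flat shape, a class set after the data were seen, fitted 130 of the 307 sites (42.3%, 36.8 to 48.1). It fitted 79.95% (78.6 to 81.3) of the siEWS-FLI-only intervals away from gene ends and 2.22% (1.58 to 3.04) of shared gene-end intervals. At an equal pileup of 4 reads the shares were 76.8% (68.9 to 83.6), 95.2% (94.3 to 96.1) and 11.5% (5.41 to 20.8) in the same order. At 5 reads they were 28.8% (18.8 to 40.6), 60.7% (56.99 to 64.4) and 3.86% (1.68 to 7.47). At 4 and at 5 reads gene-end sites were thus flat less often than other siEWS-FLI-only intervals and more often than shared ones. At 6 reads the sites stood at 5.88% (1.23 to 16.2) and shared intervals at 1.61% (0.441 to 4.08), and those intervals overlap. At 7 reads or more 0 of 45 sites were flat, against 1.44% of shared intervals. Whether reads on 1 position are copies made in the 34 PCR cycles was not tested. The other 177 sites made up 20.4% (17.8 to 23.3) of all siEWS-FLI-only intervals that were not flat, and flat sites made up 4.51% (3.78 to 5.34) of all flat ones.

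Most sites lay at gene starts. The promoter table gives strand for 15812 of the 19974 protein-coding genes used, so the nearest gene end could be named for 262 sites: 203 were starts (77.5%, 71.9 to 82.4) and 59 were the opposite, 3′ end of the gene. Among shared gene-end intervals 97.3% (96.3 to 98.0) were nearest to a start, as were 94.7% (93.9 to 95.4) of siNEG-only gene-end intervals. Sites that were not flat were nearest to a start in 87.0% of cases (80.7 to 91.9) and flat sites in 63.9% (54.1 to 72.9). The sites at the 3′ end of a gene had a median of 4 reads, and 39 of the 59 were flat. Only 41 sites (13.4%, 9.76 to 17.7) had ends of 2 or more protein-coding genes within 1 kb, against 30.2% (28.0 to 32.4) of shared gene-end intervals.

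Many sites lay close beside a siNEG interval and most lay far from any. Distance was counted from edge to edge, with 1 for intervals that touch. The median was 19647 bases. A siNEG interval lay within 1 kb of 85 sites (27.7%, 22.8 to 33.1), and only 5 further sites had one between 1 and 2 kb away. A siNEG interval was over 1 and up to 10 kb away for 37 sites (12.05%, 8.63 to 16.2), against 12.5% (11.4 to 13.7) of siEWS-FLI-only intervals away from gene ends. It lay over 10 and up to 100 kb away for 127 sites (41.4%, 35.8 to 47.1) and over 100 kb away for 58 (18.9%, 14.7 to 23.7). Away from gene ends, 3.17% (2.61 to 3.81) of siEWS-FLI-only intervals had a siNEG interval within 1 kb. Of 16274 siNEG intervals, 4224 siNEG-only and 1663 shared ones lay at gene ends, in windows that cover 2.396% of the chromosome span. The 27.7% is therefore not read as a trait of the sites. The 85 sites within 1 kb are called flanking below and the other 222 separate, a division at a distance chosen with these data known.

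**Figure D2:**
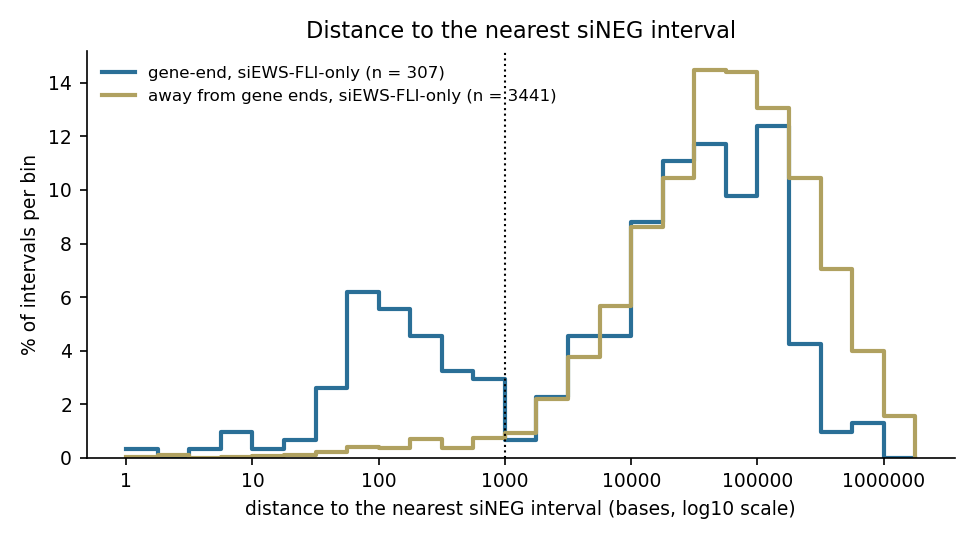
Percentage of intervals in each bin of distance to the nearest siNEG interval (bases, log10 scale) for the 307 gene-end sites and the 3441 other siEWS-FLI-only intervals. The dotted line marks 1 kb: 85 of the 307 sites lie to its left, and few sites lie just to its right.

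The flanking sites stood beside a siNEG peak of the same gene in most cases. For 79 of the 85 the siNEG summit was within 1 kb of an end of the same gene. The edges lay 1 to 877 bases apart (median 125), and the summits 144 to 1153 bases apart (median 449). The siNEG neighbour had 4 to 122 reads with a median of 10, and 70 of the 85 neighbours were themselves not called with siEWS-FLI, so at those places the 2 libraries had neighbouring intervals and neither was shared. The remaining 15 neighbours overlapped another siEWS-FLI interval. Most siNEG gene-end intervals lacked a siEWS-FLI overlap in any case: 4224 had none and 1663 had one. The 70 of 85 is therefore not read as a trait of the flanking pairs. In raw reads, the flanking site had more than its siNEG neighbour in 8 cases and the same number in 5. These counts were not scaled for the backgrounds of 0.239 (siEWS-FLI) and 0.348 (siNEG) reads per base, so equal reads are not equal signal. Of 68 flanking sites within 1 kb of a RefSeq start, 52 lay farther from it than the siNEG summit did. The sites were chosen to share no base with a siNEG interval, and siNEG gene-end summits lay mostly near starts. The 52 is therefore set in part by the rule and is not read as a finding. The 68 sites lay on either side of the siNEG summit about equally, 35 downstream of it along the gene and 33 upstream.

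Named flanking sites show the range, in raw reads that were not scaled between the libraries. S100A4 encodes a calcium-binding protein of cell motility. Its site at chr1:153545485-153545706 had 12 reads (6.20 to 21.0), the highest pileup of all 307, and lay 120 bases from a siNEG interval with 7 reads (2.81 to 14.4). The intervals of the pair of counts overlap. RBCK1 encodes a subunit of the linear ubiquitin ligase complex. Its site at chr20:407682-407924 had 11 reads (5.49 to 19.7), 124 bases from a siNEG interval with 19 (11.4 to 29.7). E4F1 encodes a zinc finger regulator of transcription, and its site at chr16:2223903-2224122 had 10 reads (4.80 to 18.4), 228 bases from one with 27 (17.8 to 39.3). FOSL2, an AP-1 factor gene, had 9 reads on each side with 22 bases between the intervals' edges. IKBKE, a kinase gene of innate immune signalling, had 8 and 7 reads, and PHLDB3 had 8 and 9. ALG14, which encodes a subunit of an enzyme that builds the sugar chain for protein glycosylation, had 8 and 6 reads with siEWS-FLI and siNEG. At none of these 7 promoters did the siNEG list lack a call; the calls sat at neighbouring positions.

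Closest of all were C9orf40, whose interval touched the siNEG one (4 and 8 reads), NTPCR (5 bases away, 4 and 13 reads) and AAMP (6 bases away, 7 and 71 reads). SMYD5, a SET-domain protein gene, and SLC29A2, a nucleoside transporter gene, each lay 7 bases away, with 6 and 5 reads and with 7 and 7. On the other side of the overlap rule, 5 shared bases put SELENOI (8 reads) among the shared intervals, and 9 shared bases did so for GDF5 (5 reads) and ALDH6A1 (6 reads). At these promoters a few bases decided on which side of the rule an interval fell.

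Where separate sites lay near a gene start they lay close to it. The 127 separate sites within 1 kb of a RefSeq start had a median distance of 202 bases from it, against 460 for the 68 flanking sites and 158 for shared intervals. The 460 is set in part by the rule, which keeps flanking sites off the siNEG intervals beside them. Of the 118 separate sites that were not flat, 79 had a RefSeq start within 1 kb, at a median distance of 140 bases and a median position 17 bases inside the gene. Summits of shared intervals lay upstream instead: their median position was 109 bases before the start, and 33.9% were inside the gene, against 57.5% of separate sites within 1 kb of a start. siNEG-only gene-end summits had a median position of 62 bases before the start. In all, 73 separate sites (32.9%, 26.7 to 39.5) had a summit within 250 bases of a RefSeq start, against 61.9% (59.5 to 64.2) of shared gene-end intervals.

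**Figure D3:**
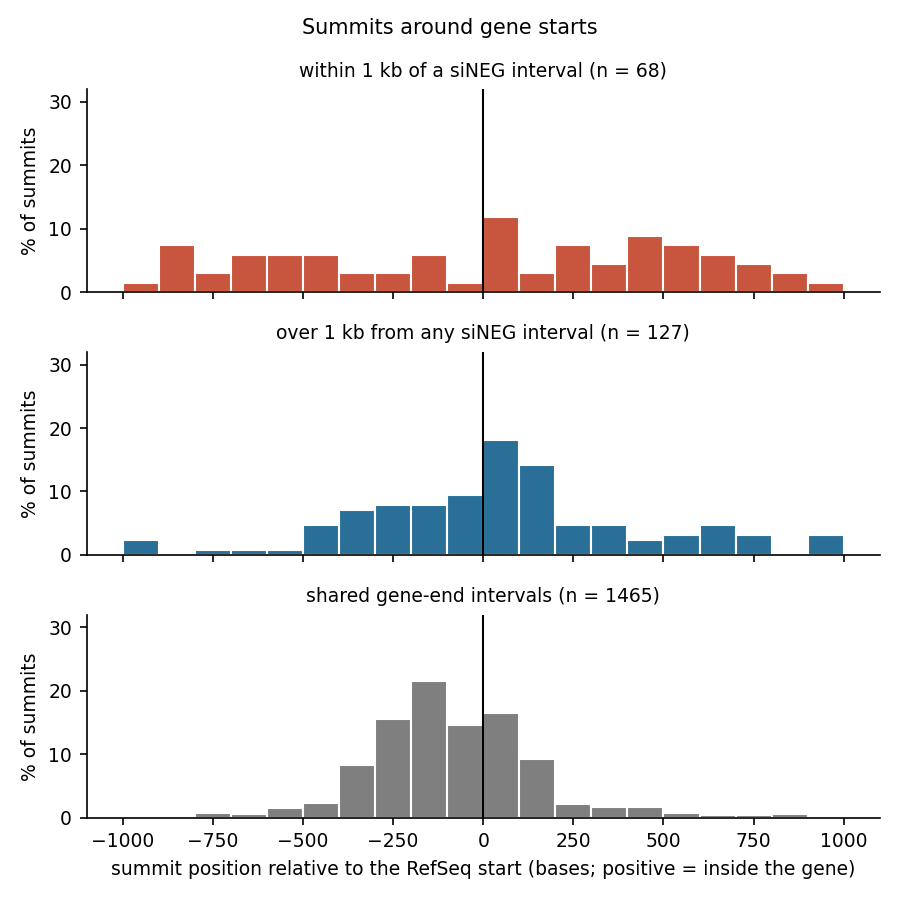
Summit position relative to the RefSeq gene start, in bins of 100 bases (positive values lie inside the gene), as a percentage of the summits within 1 kb of a start. Flanking sites (n = 68) are spread to either side, separate sites (n = 127) are highest in the first 100 bases inside the gene, and shared intervals (n = 1465) are highest upstream of the start. The rule keeps flanking sites off the siNEG intervals beside them.

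CDK12 had the strongest site by q-value. It encodes a kinase that phosphorylates the tail of RNA polymerase II and supports transcription of long genes, DNA repair genes among them. The interval at chr17:39461398-39461636 was 239 bases wide, with its summit 22 bases inside the gene, and had 11 reads (5.49 to 19.7), a fold of 9.68 and a −log10 q of 11.5. With siNEG nothing was called within 175274 bases, the nearest interval being closest to STARD3. DBR1, which encodes the enzyme that opens intron lariats after splicing, had 9 reads (4.12 to 17.1) at chr3:138174716-138174916, 68177 bases from the nearest siNEG interval. NARS2, the mitochondrial asparaginyl-tRNA synthetase gene, also had 9 reads at chr11:78574900-78575099, 181 bases before its start and 228658 bases from siNEG. These 3 were the strongest sites by q-value.

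Of the 25 strongest sites by q-value, 18 were separate and 7 flanking. They had 7 to 12 reads, 23 were nearest to a start, 16 were wider than 200 bases and 0 were flat. Among the separate ones, PDE6D, a prenyl-binding chaperone gene, had 9 reads in an interval of 350 bases that also lies within 1 kb of COPS7B, a COP9 signalosome subunit gene. ACSS2, the gene of an acetyl-CoA synthetase, had 9 reads 1827 bases from a siNEG interval with 30. Sites of 8 reads (3.45 to 15.8) lay at MACROH2A2, which encodes a variant histone, CNEP1R1, TBCK, ENGASE, the autophagy gene WDR45 and DUS4L-BCAP29, the last also within 1 kb of COG5. The TBCK site lies within 1 kb of AIMP1 as well, and its nearest siNEG interval was 552365 bases away. NUP205 and RANBP2, both genes of nuclear pore proteins, had 7 reads each (2.81 to 14.4), 47624 and 55160 bases from siNEG. The NUP205 interval was the widest of all, at 431 bases. DNAJC3, a co-chaperone gene of the endoplasmic reticulum, had 7 reads. CRYBG1 had 7 reads at its 3′ end, the only 1 of the 25 nearest to such an end.

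**Figure D4:**
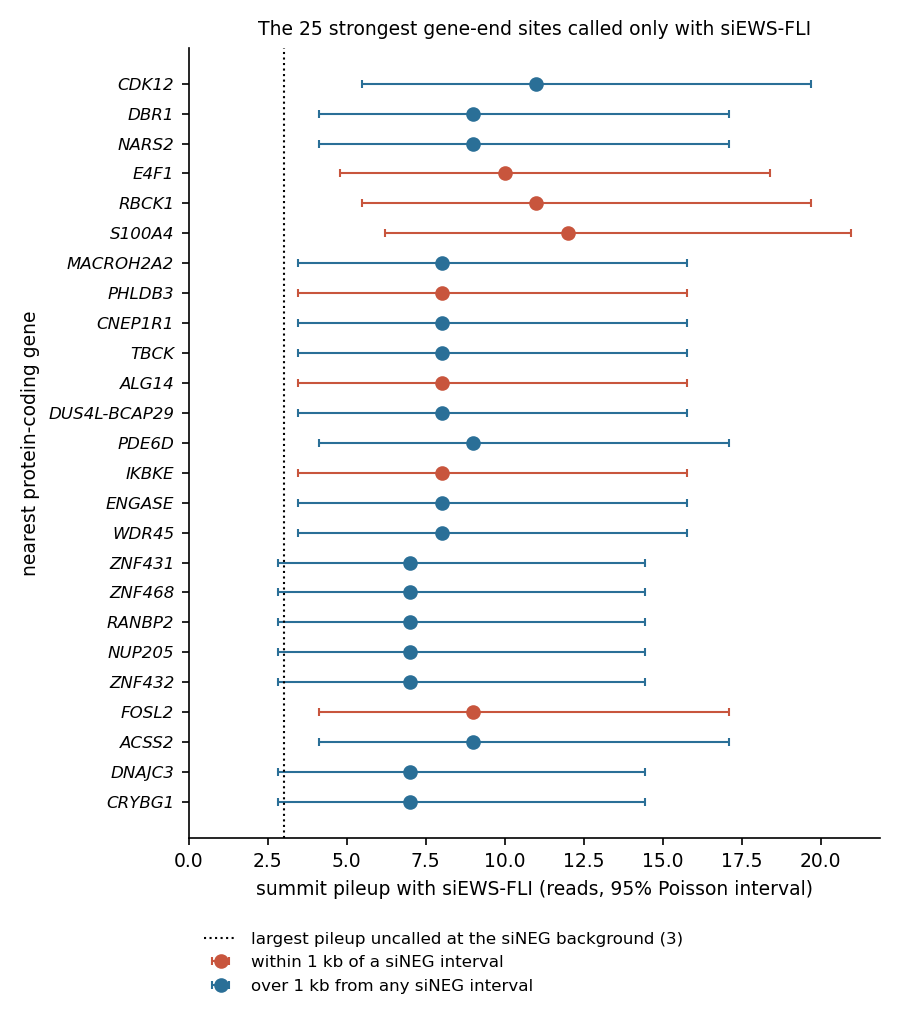
Summit pileup with siEWS-FLI (reads, with 95% Poisson intervals) at the 25 strongest gene-end sites, labelled by nearest gene in order of q-value. Points run from 7 to 12 reads. The dotted line marks the 3 reads that would stay uncalled at the siNEG background, not scaled between the libraries. The intervals of the sites with 7 reads reach below this line.

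The 5 sites farthest from any siNEG interval had 4 to 8 reads, the highest being TBCK, described above. ZNF711 on chromosome X, a zinc finger gene, had 5 reads (1.62 to 11.7) with siNEG 994180 bases away, and WWOX had 6 reads (2.202 to 13.1) with siNEG 830411 bases away. KCTD8, at its 3′ end, had 4 reads in a flat interval, and MMADHC, a gene of cobalamin metabolism, had 5. Wide intervals were not always high: PLA2G4C had 4 reads over 334 bases, GDAP2 had 4 over 317 and COX4I1 had 5 over 293. COX4I1 encodes a subunit of cytochrome c oxidase; the summit lay on its start base and 151 bases upstream of the start of EMC8. SLC35A1, the CMP-sialic acid transporter gene, had 6 reads over 312 bases and ARMC2 had 5 over 352. Other wide intervals were at AAMP (356 bases), MAP3K6 (298, 6 reads), ZZZ3 (289, 7 reads), ANKRD26 (278, 5 reads), ELL2 (260, 7 reads) and C1QTNF5 (255, 8 reads).

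Members just inside the 1 kb window were FADS3 (987 bases from the gene end), LANCL1 (986) and SLC25A5 (986), each with 4 reads. Just outside it were DDX6 (1002 bases, 7 reads), COQ10A (1006, 5 reads) and ELOVL3 (1011, 10 reads). The window thus left out intervals as strong as those it took in.

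The sites belonged to 349 of 19974 protein-coding genes (1.75%). Shared gene-end intervals belonged to 10.7% of genes and siNEG-only ones to 24.3%. Of the 349 genes, 33 had a shared interval at an end and 103 a siNEG-only one, to be set beside those shares of all genes. Neither kind was at an end of 218 (62.5%). Since only 10.7% and 24.3% of all genes had such intervals, most of all genes had neither as well. Their exact share was not counted, and the 62.5% is not read as a trait of the 349 genes. SOX6 alone had 2 sites. It is a gene reported as activated by EWS-FLI1 and was the only 1 of 30 such genes with a site: a flat interval of 5 reads lay 737 bases from its 3′ end, 35669 bases from a siNEG interval with 33 reads, and a second interval of 5 reads near its other end was closest to C11orf58. Among 16 genes known to be lowered by the fusion, 0 had a site, which allows a share of up to 18.8% (3 counts of the total, the limit used here for every count of 0).

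For the longest lists the share of genes with a site had an interval that held the background of 1.75%. Counts here and below cover the listed genes only, and the lists are not complete. MACROH2A2, a histone variant gene, SLC51A, a solute carrier gene, and the zinc finger gene E4F1 had sites but were not listed. Zinc finger genes had sites in 7 of 557 cases (1.26%, 0.507 to 2.57), 6 of them on chromosome 19. ZNF431, ZNF432 and ZNF468 had 7 reads each at separate sites 16, 17 and 123 bases from the gene start, ZNF667 had 7 at a flanking one, and ZNF17 and ZNF551 had 4. Solute carriers had sites in 8 of 379 (2.11%, 0.916 to 4.12), among them SLC2A1, the glucose transporter gene, with 6 reads 807 bases from its 3′ end. Aminoacyl-tRNA synthetases had 3 of 35 (8.57%, 1.80 to 23.1): NARS2, LARS2 with 5 reads and CARS2 with 4 in a flat interval beyond its 3′ end. Histone genes had 5 of 81 (6.17%, 2.03 to 13.8): H2AC4 (7 reads), H1-2 and H4C5 (5 each), and H2AZ1 and H2BC4 (4 each, both flat). The exact intervals of these last 2 lists lie above 1.75%. Nothing is read from this, since 18 lists were counted and they were chosen with earlier results of these data known.

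Smaller lists held few sites. A list of 19 transcription elongation kinases and related genes had 2, CDK12 and SUPT5H. The SUPT5H site had 4 reads in a flat interval near its 3′ end. ELL2, named above for its width, was not on this list. Splicing factors had 2 of 32, DBR1 and PRPF8, whose site of 4 reads lay closer to RILP. Proteasome subunits had 2 of 39, PSMA7 (5 reads) and PSMD13 (4 reads, flat). The nuclear respiratory chain had 2 of 84, COX4I1 and ATP5F1D (4 reads, flat). Cytosolic ribosomal proteins had 1 of 85, RPL13, with 5 reads in a flat interval near its 3′ end. RNA polymerase II, TFIID and Mediator genes had 1 of 72, MED11, whose site of 6 reads lay 217 bases from a siNEG interval with 50. There were 0 sites at 77 mitochondrial ribosome genes, 59 kinesin and centromere genes, 24 ATR-CHK1 pathway genes and 28 genes of platinum adduct repair, which allows shares of up to 3.90%, 5.08%, 12.5% and 10.7% by the same limit of 3 counts. ATR-CHK1 genes had siNEG-only gene-end intervals in 16 of 24 cases (66.7%), against 24.3% of all genes. Most other lists also stood above 24.3%, among them aminoacyl-tRNA synthetases (57.1%) and cytosolic ribosomal proteins (55.3%). Solute carriers (22.4%) and the marker lists stood below it. Markers of blood cells and of hepatocytes, 10 each, had 0 sites and 0 shared or siNEG-only gene-end intervals.

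The promoter sequences of separate sites held the ETS motif no more often than promoters at large. The motif CCGGAAG, searched on both strands, was in 14.2% (13.7 to 14.7) of all 15812 windows. It was in 46 of the 220 windows with a gene-end site within 1 kb of the start (20.9%, 15.7 to 26.9). For separate sites it was in 20 of 141 (14.2%, 8.88 to 21.1) and for flanking sites in 26 of 79 (32.9%, 22.7 to 44.4). Windows beside shared intervals held it in 36.9% (34.6 to 39.2) of 1742 cases and those beside siNEG-only intervals in 27.0% (25.6 to 28.5) of 3617. Without flat intervals the share for separate sites was 13 of 91 (14.3%, 7.83 to 23.2). The interval for flanking sites held the siNEG-only and shared shares. Flanking sites have a siNEG interval within 1 kb by definition, so their windows can also belong to those sets. Nothing is therefore read from that match. The interval for separate sites lay below the shares of siNEG-only and shared promoters. All windows include promoters beside siNEG intervals, which separate sites lack within 1 kb by definition. The share in windows without a siNEG interval was not counted, so no excess or lack is read for separate sites.

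**Figure D5:**
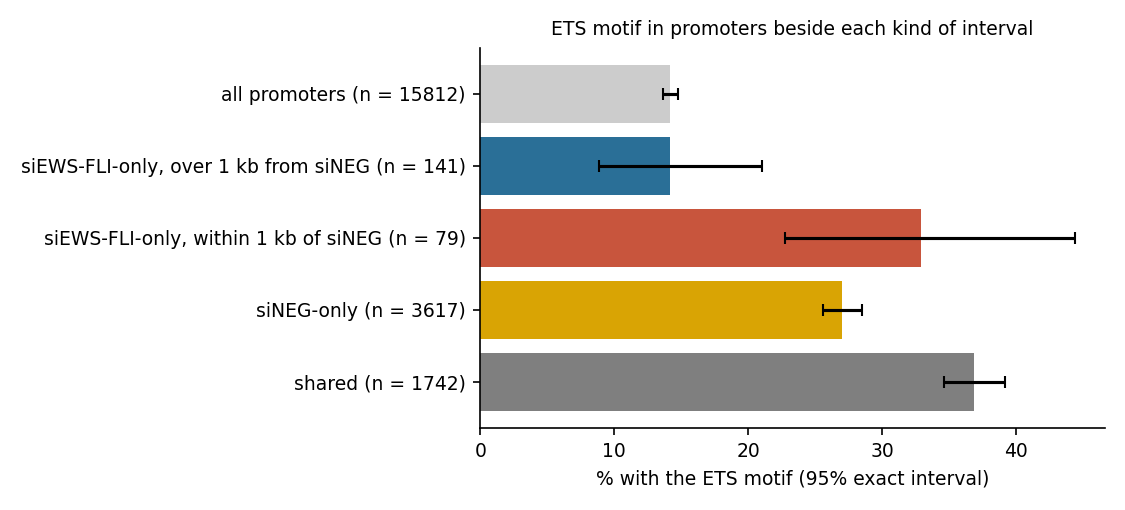
Percentage of RefSeq promoter windows that hold the ETS motif on either strand, for all promoters and for those with each kind of interval within 1 kb of the start; bars show exact 95% binomial intervals. Separate sites stand at 14.2%, as do all promoters, a set that includes promoters beside siNEG intervals. Flanking sites stand at 32.9%, siNEG-only promoters at 27.0% and shared promoters at 36.9%, and these sets of windows can overlap.

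A run of 3 GGAA units on either strand was in 0 of the 220 windows, which allows a share of up to 1.36% (3 counts of the total), and in 0.0632% of all windows. The GC box GGGCGG was in 66.4% (59.7 to 72.6) of the 220, in 58.5% of all windows and in 75.1% of those beside shared intervals. The NF-Y motif CCAAT was in 32.7% (26.6 to 39.4), 36.3% and 47.2% in the same order. The CRE motif TGACGTCA was in 3.18%, 2.59% and 3.50%. The NRF1 motif was in 3.64%, 1.76% and 2.93%, and the YY1 motif in 3.18%, 1.37% and 2.35%. The exact intervals for these 3 motifs in the 220 windows were 1.29 to 6.45, 1.58 to 7.04 and 1.29 to 6.45. Each held both the share of all windows and the shared share. The NF-Y interval held the share of all windows only, and the GC box interval held neither. The ETS motif and the GGAA run share the letters GGAAG, and each motif was counted once a window. Composition was that of CpG-rich promoters: the median ratio of observed to expected CpG was 0.836, against 0.763 in all windows and 0.862 beside shared intervals, and the median GC content was 65.2%, 62.7% and 64.7%. Motif matches describe the letters of these windows and were not linked to binding.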

How the data were processed

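CUT&Tag for EWS-FLI was done in TC32 cells, with 1 library for siEWS-FLI and 1 for siNEG. Per the submitters' processing notes the tools were Trim Galore 0.6.6, Bowtie2 2.4.5 and MACS2 2.2.9.1, and the build was hg38; no source used here gives the removal of duplicate reads, read totals or peak settings. The authors deposited 1 peak list a library, with a fold enrichment (a linear ratio) and the −log10 of the p-value and of the q-value for each summit.

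Lines with the same interval were merged, keeping the summit of highest −log10 q. Gene ends and promoter windows came from RefSeq tables for GRCh38; the promoter table held 79.2% of the genes and no window on chromosome 8. Summit pileups were solved from fold and p-value, assuming that fold is (pileup + 1) / (background + 1) and p a Poisson tail, to within 0.001 in −log10 p. The solver considered whole numbers only, so a whole result was fixed by the method. The best one met the tolerance, which was wider for strong intervals, for 100% of the intervals tried. With −log10 p above 250, 4 siEWS-FLI and 28 siNEG intervals were not tried. The solver was tested on simulated data made with the same formulas. That checks the solving step and cannot check that the deposited values follow them. Intervals on percentages are exact binomial 95% intervals and those on reads exact Poisson ones; both cover counting error only. For a count of 0 the limit printed is 3 counts of the total. No test between groups was possible. Python 3.11.15, pandas 2.3.3 and scipy 1.17.1 were used.

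The sites and gene lists were chosen with earlier results of these data known. Genes named are the 25 strongest sites, the 15 widest, the 5 nearest to and 5 farthest from siNEG, and those beside the rule's limits. Some or all sites at genes of the 18 lists were named too. Of the sites with the ETS motif in a window that holds the summit, the 4 strongest were shown.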

Additional observations from a re-analysis of the deposited data

How the results depend on the processing

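Of 64 values, 8 quantities under 8 alternatives, 38 stayed and 26 moved; the cause was not tested. A number of sites was counted as staying within 1.5 times 307, which 455 sites within 2 kb and 222 without siNEG within 1 kb met, and any other value within the 95% interval of the value given. No paired analysis was possible because each group has 1 library. Counting the summits of all lines of an interval moved none of the 8. Within 500 bases of a gene end there were 203 sites and 84.9% were nearest to a start. Within 2 kb, 22.2% lay within 1 kb of siNEG. Leaving out sites within 1 kb of siNEG made that share 0% by construction, and gave a median distance of 39809.5 bases, 71.4% at starts and 14.2% with the ETS motif. Asking only for a reciprocal overlap under 50% gave 1203 sites, a median distance of 0 bases, a median fold of 5.63, a median −log10 q of 4.03, 81.5% within 1 kb of siNEG, 60.02% of 200 bases, 92.1% at starts and 34.0% with the ETS motif. With −log10 q of at least 2 there were 165 sites, a median fold of 5.22, a median −log10 q of 3.32 and 81.2% of 200 bases. With all genes of the table there were 485 sites, a median distance of 26173 bases and 21.0% within 1 kb of siNEG. Without flat intervals, an alternative chosen after seeing the data, there were 177 sites, 33.3% within 1 kb of siNEG, 81.4% of 200 bases and 87.0% at starts. Depth limits single sites: 138 of the 307 rest on 4 reads.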

Other observations

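The sites were spread over all 23 chromosomes used. Chromosomes 1 and 11 held 25 each, and chromosomes 14 and 18 held 2 each. Per 1000 protein-coding genes, chromosome 13 had 29.6 sites and 29.6 shared gene-end intervals (10 of each), and chromosome 4 had 19.5 and 26.0. Chromosome 19 had 15.2 sites and 151.6 shared intervals (22 and 220), so the 2 kinds of interval were not distributed alike.

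Long non-coding RNA genes had an end within 1 kb of 46 sites (14.98%, exact binomial 95% interval 11.2 to 19.5), against 353 shared gene-end intervals (20.6%, 18.7 to 22.6). A microRNA gene lay within 1 kb of 1 site and of 29 shared intervals.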
